A study of Mus musculus with 6 samples.

Results

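The 10 genes described here encode perforin, granzymes and other cargo or partners of the cytotoxic granule in mouse spleen: Prf1, Gzma, Gzmb, Gzmc, Gzmk, Gzmm, Nkg7, Srgn, Fasl and Serpinb9. They were chosen by gene symbol, and every array probe annotated to one of them was taken, which gave 12 probes of the 25697 on the array and 10 of its 16593 gene symbols. Spleen RNA was hybridised to 6 Illumina MouseRef-8 v2 arrays, 3 from Rag2/pfp knockout mice and 3 from wild-type mice. Per their genotype label, the knockout animals lack Rag2, whose product is needed to recombine antigen receptor genes, and pfp, the older name of Prf1. Neither the labels nor the files state which parts of the genes were disrupted, the strain, age or sex of the mice, or any pooling of animals, and no treatment is labelled for either group. The extraction protocol of the wild-type samples names the knockout mouse, so groups follow the titles and genotype labels.

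Cytotoxic lymphocytes, mainly natural killer cells and CD8+ T cells, store perforin and granzymes in secretory granules, bound to a proteoglycan core made on serglycin. When the granule is released at the contact with a target cell, perforin forms pores in the target's membrane and granzymes, a family of serine proteases, enter and cleave proteins there. The spleen is a major site of natural killer cells and T cells, and loss of Rag2 is known to prevent the development of mature T and B cells while natural killer cells still form.

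Promoter windows of 3 members are shown because Gzmm was the member called lower, Prf1 is a targeted gene, and the call of Nkg7 depended on 1 array. Each run is the 250 bases before the RefSeq gene start on the plus strand of GRCm38.p6, and capitals mark matches to 3 motifs on either strand. The windows are chr10:79688770-79689019 for Gzmm, chr10:61297586-61297835 for Prf1 and chr7:43436888-43437137 for Nkg7.
Gzmm: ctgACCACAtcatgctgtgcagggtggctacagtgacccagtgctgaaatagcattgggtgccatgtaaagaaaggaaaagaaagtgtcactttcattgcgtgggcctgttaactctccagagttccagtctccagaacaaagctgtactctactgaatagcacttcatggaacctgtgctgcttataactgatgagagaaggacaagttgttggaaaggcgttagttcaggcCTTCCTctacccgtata
Prf1: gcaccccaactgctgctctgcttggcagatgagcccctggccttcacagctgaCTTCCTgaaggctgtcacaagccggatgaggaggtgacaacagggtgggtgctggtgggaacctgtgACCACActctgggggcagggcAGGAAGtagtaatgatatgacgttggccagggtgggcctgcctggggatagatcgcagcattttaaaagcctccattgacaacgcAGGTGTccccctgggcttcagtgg
Nkg7: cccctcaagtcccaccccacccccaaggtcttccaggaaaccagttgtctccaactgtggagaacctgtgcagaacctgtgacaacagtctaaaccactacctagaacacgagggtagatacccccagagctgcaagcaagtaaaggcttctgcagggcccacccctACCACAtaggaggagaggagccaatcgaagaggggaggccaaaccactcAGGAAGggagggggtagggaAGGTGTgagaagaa
The Prf1 window reaches into the annotated gene, so it belongs to a later start. The motifs were the RUNX core TGTGGT, a T-box element AGGTGT and the ETS core AGGAAG, written as letters chosen with the sequences in view, and no matches of different motifs overlap in these 3 windows. The RUNX letters stand in all 3 windows, in 7 of the 12 windows of the 10 genes, and in 14.0% of 32851 RefSeq promoter windows. The T-box letters stand in the Prf1 and Nkg7 windows, in 4 of the 12 member windows, and in 11.8% of all windows. The ETS letters stand in all 3 windows shown, in 5 of the 12 member windows, and in 29.5% of all windows. A match is a description of letters and not a binding site. By chromosome, Prf1, Srgn and Gzmm lie on chromosome 10, Gzma, Gzmk and Serpinb9 on chromosome 13, Gzmb and Gzmc on chromosome 14, Nkg7 on chromosome 7 and Fasl on chromosome 1.

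Levels are given as background-corrected, quantile-normalized signal on the log2 scale, and differences as Rag2/pfp knockout minus wild type. A probe counts as detected on an array when its deposited detection p-value is under 0.05, and it was tested when it was detected on at least 3 of the 6 arrays. The number of detected probes was 12084 to 12595 on the knockout arrays and 12545 to 13149 on the wild-type arrays. Pairs of arrays correlated at 0.931 to 0.958 among knockout arrays and at 0.978 to 0.987 among wild-type arrays. Knockout replicate 2 stood apart from the other 5 arrays, with the Y-linked gene Eif2s3y at 8.30 there and at 4.59 to 4.82 elsewhere, and with both Xist probes at 4.88 and 5.13 there and at 7.13 to 9.41 elsewhere. By these genes knockout replicate 2 reads as male and the other 5 arrays as female. Sex was thus mixed in the knockout group alone. Calls among the members and named genes that knockout replicate 2 decides are given with and without it. The Rag2 probe was at 4.70, 4.89 and 4.62 on the knockout arrays and at 4.66, 4.63 and 4.69 on the wild-type arrays, not detected on any, so it checks neither label.

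Of the 12 member probes, 7 probes of 5 genes passed the detection filter and 5 did not. Gzmm was the 1 probe called, lower in knockout spleens, at a Benjamini-Hochberg adjusted p under 0.05 in limma's moderated test over 12885 probes, and 0 member probes were called higher. Over all tested probes, 3.92% were called, 2.94% lower and 0.978% higher. Below 0 lay 4 of the 7 differences and above 0 lay 3, with a median of -0.02 beside 0.03 for all tested probes. The groups did not overlap in 2 of the 7, Gzmm and a probe of Srgn, both lower in knockout spleens, against 24.4% of all tested probes in either direction and 12.0% lower. Without knockout replicate 2, 2 member probes were called, Gzmm and Nkg7, both lower.

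**Figure D1:**
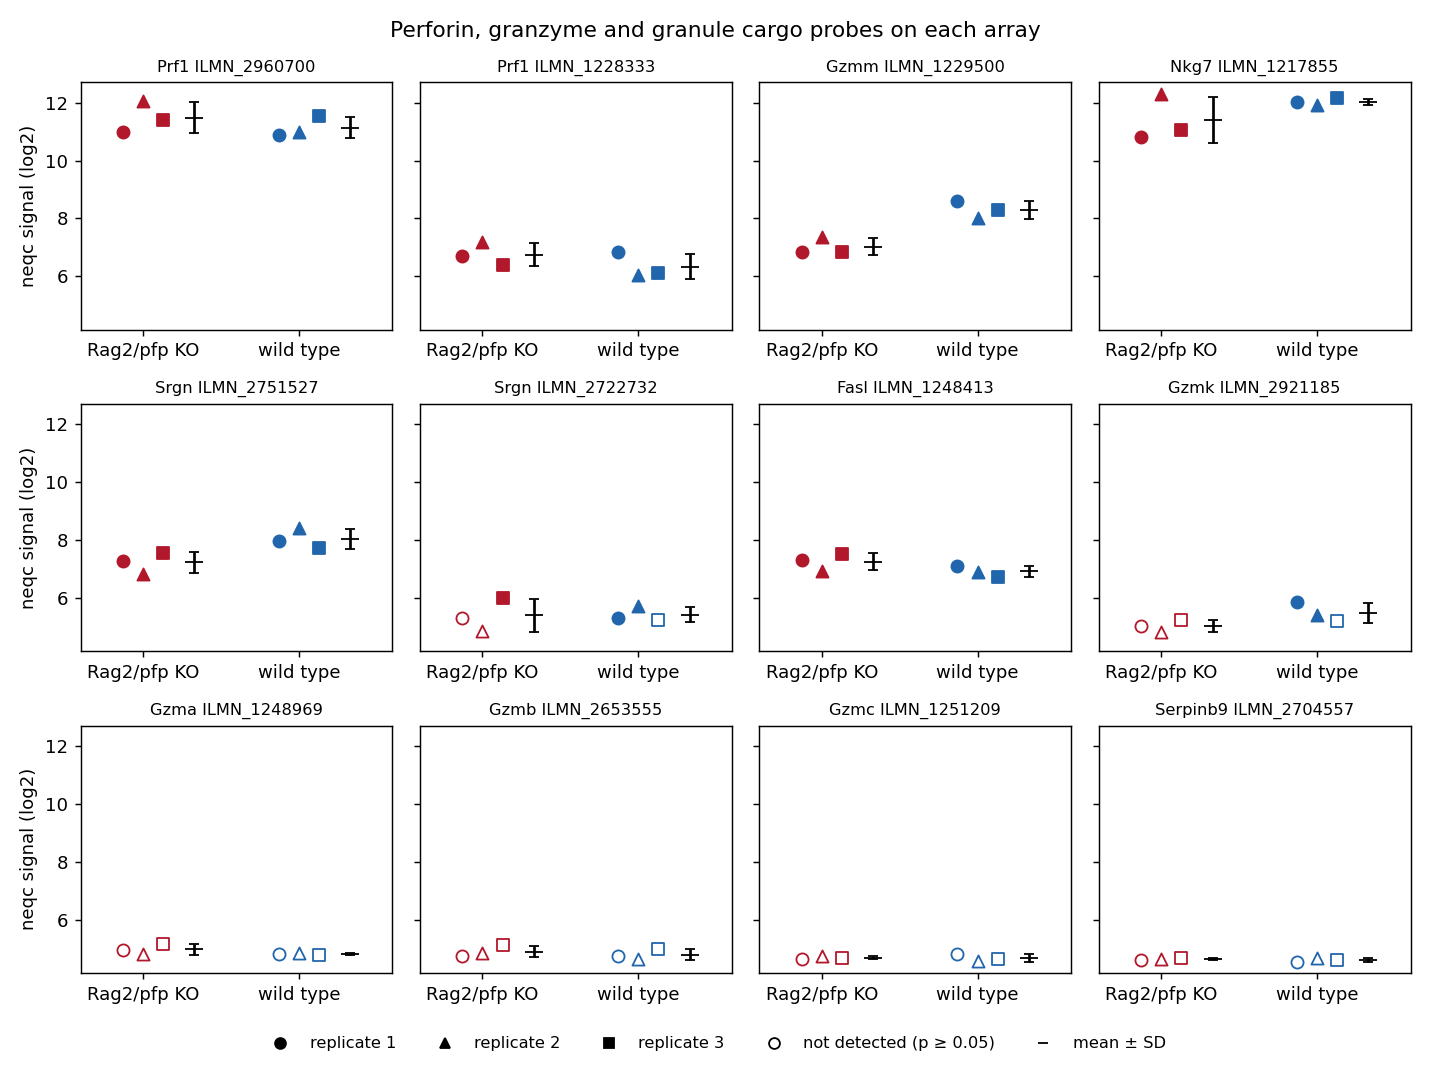
Background-corrected and normalized signal (log2) of the 12 member probes, 1 panel per probe, with Rag2/pfp knockout arrays left and wild-type arrays right, marker shape for the replicate number, open symbols where a probe was not detected, and bars for the mean ± SD of 3 arrays. The Gzmm groups do not overlap, and the probes of Gzma, Gzmb, Gzmc and Serpinb9 are open on all 6 arrays.

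Prf1 encodes perforin, the pore-forming protein, and 1 of its 2 probes was bright in both groups. Probe ILMN_2960700 read 10.98, 12.05 and 11.41 in knockout spleens, against 10.89, 10.99 and 11.55 in wild-type spleens. The raw signal was 2436, 3405 and 2434 on the knockout arrays, against 2384, 2366 and 2987 on the wild-type arrays, and the probe was detected on all 6. Knockout replicate 2 was the highest of all 6 arrays, and the other 2 knockout arrays lay within the wild-type range of 10.89 to 11.55. The means were 11.48 ± 0.54 in knockout spleens and 11.14 ± 0.36 in wild-type spleens (SD, n = 3 each). Their difference of 0.34 ± 0.32 (SE) had a 95% interval of -0.39 to 1.07 and an adjusted p of 0.670 in limma. Leaving out 1 array gave 0.05 without knockout replicate 2, the lowest value, and 0.58 without knockout replicate 1, the highest.

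The other Prf1 probe, ILMN_1228333, was dim but detected on all 6 arrays. It read 6.69, 7.19 and 6.38 in knockout spleens, against 6.83, 6.03 and 6.13 in wild-type spleens. The groups overlapped, and the difference was 0.42 ± 0.31 (SE), with a 95% interval of -0.27 to 1.12 and an adjusted p of 0.544 in limma. Leaving out 1 array gave 0.21 without knockout replicate 2, the lowest value, and 0.66 without wild-type replicate 1, the highest. Neither probe was called, and both intervals include 0. The files do not place either probe along the transcript, so the probes do not check the disrupted allele, and signal from them says nothing about perforin protein.

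Gzmm encodes granzyme M, a protease best known from natural killer cells and some T cells, and its level was lower in knockout spleens. Its probe ILMN_1229500 read 6.85, 7.35 and 6.84 in knockout spleens, against 8.61, 8.001 and 8.28 in wild-type spleens. Raw signal was 236, 227 and 201 on the knockout arrays, against 619, 413 and 423 on the wild-type arrays. Each knockout array lay below each wild-type array, and the probe was detected on all 6. The means were 7.02 ± 0.29 in knockout spleens and 8.29 ± 0.30 in wild-type spleens (SD, n = 3 each), a difference of -1.28 ± 0.26 (SE), or 2.43-fold lower in knockout spleens. Its 95% interval was -1.87 to -0.68 and its adjusted p in limma 0.0321. In the authors' deposited log2 values, which carry no background correction, the levels were 7.84, 8.11 and 7.83 in knockout spleens, against 8.96, 8.52 and 8.71 in wild-type spleens, a difference of -0.80. The call was lost when knockout replicate 1 or 3, or any wild-type replicate, was left out, with differences of -1.13 to -1.45 over all 6 omissions, and it held without knockout replicate 2. It was also lost when probes were not filtered on detection (adjusted p 0.0594 in limma).

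T cell markers were lower in the same knockout spleens. Of 15 T cell marker genes with a probe, 13 were tested and 10 were called lower, among them Cd3e, Cd3d and Cd3g, subunits of the T cell receptor complex, and Cd6, a T cell surface receptor. The summed level of the list was 921 to 1929 in knockout spleens, against 16671 to 19766 in wild-type spleens, on the linear scale. Cd3e, which was not detected on any knockout array, was at least 49.0-fold lower in knockout spleens, with an adjusted p of 3.1e-06 in limma, and Cd6 at least 41.2-fold lower. Their part in the Gzmm difference was not tested. In bulk tissue, fewer cells of a type and less RNA per cell cannot be told apart.

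Gzmk, the gene of granzyme K, was near the detection limit and was not tested. Its probe ILMN_2921185 read 5.02, 4.82 and 5.23 in knockout spleens, against 5.86, 5.40 and 5.19 in wild-type spleens. It was detected on 0 knockout arrays and on 2 wild-type arrays, with detection p-values of 0.212, 0.520 and 0.102 in knockout spleens and 0.00501, 0.0363 and 0.0902 in wild-type spleens. The groups overlapped, since the knockout replicate 3 value exceeded the lowest wild-type value. No fold is given, because wild-type replicate 3 did not detect the probe either.

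The other granzymes among the members were not detected on any array. Gzma, encoding granzyme A, read 4.94, 4.80 and 5.15 in knockout spleens, against 4.80, 4.83 and 4.77 in wild-type spleens. Gzmb, encoding granzyme B, the family's best-studied inducer of caspase activation, read 4.74, 4.84 and 5.11 in knockout spleens, against 4.74, 4.63 and 4.99 in wild-type spleens. Gzmc, encoding granzyme C, read 4.63, 4.74 and 4.66 in knockout spleens, against 4.81, 4.58 and 4.62 in wild-type spleens. These values lie at the floor of the arrays, where they have no order, and the arrays do not show whether the transcripts were absent or below detection. Of all 10 granzyme genes with a probe, 3 were tested: Gzmm, Gzmd and Gzmn. Gzmd differed by 0.04, with an adjusted p of 0.962, and Gzmn by 0.08, with an adjusted p of 0.911, both in limma. Both were near the detection limit, at 5.35 to 5.75 for Gzmd and 5.39 to 6.10 for Gzmn. Each was detected on 2 knockout arrays and 3 wild-type arrays, so a change could be hidden there.

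Nkg7, encoding a granule membrane protein of natural killer and cytotoxic T cells that takes part in degranulation, was bright in both groups. Probe ILMN_1217855 read 10.82, 12.31 and 11.05 in knockout spleens, against 12.02, 11.93 and 12.15 in wild-type spleens. Raw signal was 2172, 4003 and 1877 on the knockout arrays, against 4905, 4296 and 4428 on the wild-type arrays. Knockout replicates 1 and 3 lay below all wild-type arrays, and knockout replicate 2 lay above them. The means were 11.39 ± 0.80 in knockout spleens and 12.03 ± 0.11 in wild-type spleens (SD, n = 3 each), a difference of -0.64 ± 0.37 (SE). The 95% interval was -1.48 to 0.21 and the adjusted p in limma 0.434. Without knockout replicate 2 the difference was -1.09, with an adjusted p of 0.0395, so that array decides whether Nkg7 is called, and without knockout replicate 1 it was -0.35.

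Srgn encodes serglycin, the proteoglycan core that holds granule cargo in many blood cells, and it was read by 2 probes, neither of which was called. Probe ILMN_2751527 read 7.29, 6.83 and 7.56 in knockout spleens, against 7.98, 8.42 and 7.71 in wild-type spleens. All knockout values lay below all wild-type values. The difference was -0.81 ± 0.29 (SE), with a 95% interval of -1.46 to -0.16 before adjustment and an adjusted p of 0.169 in limma. Probe ILMN_2722732 read 5.30, 4.87 and 6.004 in knockout spleens, against 5.31, 5.71 and 5.23 in wild-type spleens. It was detected on 1 knockout array and 2 wild-type arrays, its groups overlapped, and its difference was -0.02 ± 0.32 (SE). Serglycin is also made by neutrophils, mast cells and platelets, so markers of these cells are given beside it. Of 12 tested neutrophil markers, 8 were called lower (2, 3 and 4 when wild-type replicate 1, 2 or 3 was left out, and 3 without the detection filter), with a summed level of 40291 to 103617 in knockout spleens, against 181141 to 197058 in wild-type spleens. Without knockout replicate 2 there were 7, Mpo, the myeloperoxidase gene, having lost its call (adjusted p 0.0604 in limma, against 0.0496 with all arrays). Of the called markers, Ctsg, the neutrophil granule protease cathepsin G, differed by -2.39, with an adjusted p of 0.00426 in limma. Of 5 tested mast cell and basophil markers 0 were called, and 2 differences lay above 0 and 3 below. Sums were 2263 to 6214 in knockout spleens and 5774 to 7364 in wild-type spleens. These sums are weighted to the brightest of the 5, Hdc, which differed by -0.98, while the next brightest, Gata2, differed by 0.40. Of 7 tested megakaryocyte and platelet markers 0 were called, all 7 differences lay above 0 (1 was called in the authors' deposited log2 values), and sums were 16052 to 21879 in knockout spleens and 9303 to 13805 in wild-type spleens. Their part in the Srgn values was not tested.

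**Figure D2:**
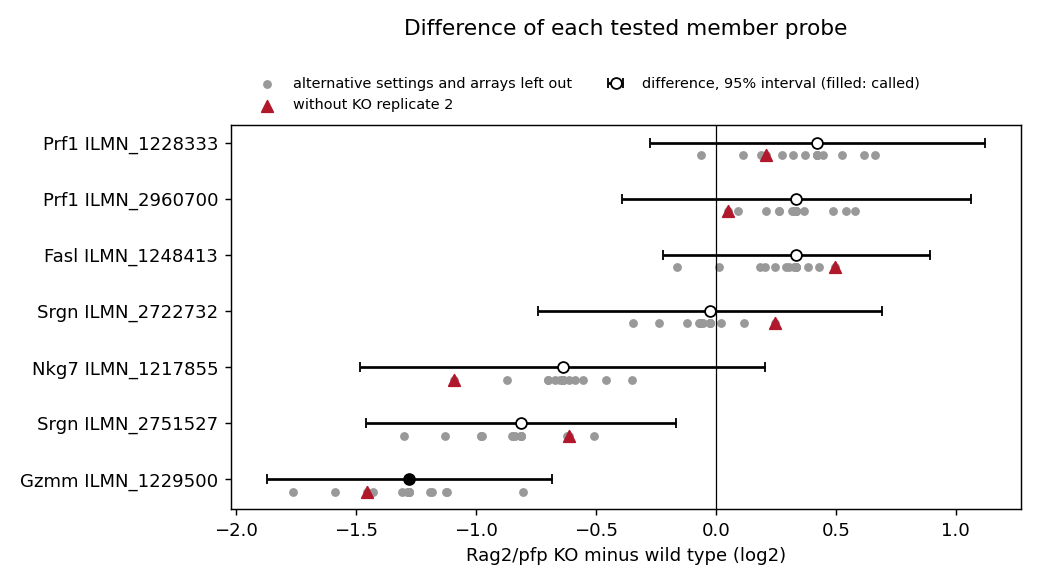
Rag2/pfp knockout minus wild type (log2) of the 7 tested member probes, as circles with 95% intervals (filled where called), with grey points for alternative settings and arrays left out, and a red triangle for the value without knockout replicate 2. Gzmm lies at -1.28 with all alternatives below 0, and Nkg7 moves to -1.09 without knockout replicate 2.

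Fasl encodes Fas ligand, which kills through a death receptor and not through perforin. Its probe ILMN_1248413 read 7.30, 6.94 and 7.51 in knockout spleens, against 7.11, 6.89 and 6.74 in wild-type spleens, detected on all 6 arrays. The knockout values ran higher on 2 arrays, and replicate 2 fell within the wild-type range. The difference was 0.34 ± 0.25 (SE), with a 95% interval of -0.22 to 0.89 and an adjusted p of 0.548 in limma, and it was 0.50 without knockout replicate 2 and 0.21 without knockout replicate 3. Serpinb9, encoding an intracellular inhibitor of granzyme B, read 4.60, 4.62 and 4.67 in knockout spleens, against 4.54, 4.68 and 4.60 in wild-type spleens, not detected on any array.

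Whether members changed unequally was tested within arrays for Gzmm and for Nkg7 against Prf1 (ILMN_2960700). The difference of the Gzmm change from the Prf1 change was -1.62, with all 3 knockout arrays below all 3 wild-type arrays. For Nkg7 the within-array difference from Prf1 was -0.16, 0.26 and -0.36 in knockout spleens, against 1.14, 0.94 and 0.60 in wild-type spleens, a difference of changes of -0.97. The 2 pairs each gave p = 0.10 in an exact two-sided permutation test, adjusted p 0.10 over both, which is the smallest p that 3 against 3 arrays allow. Nkg7 thus lay lower relative to Prf1 on each knockout array, replicate 2 included. Prf1 is itself a targeted gene, so these differences do not tell a change of Gzmm or Nkg7 from one of Prf1.

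The array profiles most like those of Prf1 and Gzmm were ranked by Pearson's r over the 6 arrays, which share the 2 groups, as a description. Nearest to Prf1 were Ubox5 (0.991), Exoc3l (0.990) and Samm50 (0.987), none of which was called. Nearest to Gzmm were Pxdc1 (0.993), Gpat3 (0.992) and H2-DMb2 (0.991), the last a subunit of the MHC class II peptide-loading factor. H2-DMb2 differed by -2.25, with an adjusted p of 0.00246 in limma, while Pxdc1 and Gpat3 differed by -1.22 and -0.92 and were not called.

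Among other granzymes and granule proteases, 7 of 11 genes were tested and 0 were called, with a median difference of 0.04 beside 0.03 over all tested genes. Over all 9158 tested genes, 2.88% were called lower and 1.04% higher. Ctsc, encoding the protease that activates granzyme precursors, differed by -0.36 ± 0.29 (SE), with an adjusted p of 0.593, and Ctsb, a lysosomal protease, by 0.19 ± 0.24 (SE), with an adjusted p of 0.751. Without knockout replicate 2 Ctsh, another lysosomal protease, was called lower at -1.16, with an adjusted p of 0.0410. Of the granule membrane, docking and release genes, 13 were tested and 0 called, 10 of them lay below 0, with a median of -0.45. Lamp1, a lysosomal membrane glycoprotein exposed on degranulation, differed by -0.28 ± 0.22 (SE), with an adjusted p of 0.585, and its relative Lamp2 by 0.01 ± 0.31 (SE), with an adjusted p of 0.995. All these adjusted p-values are from limma.

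Regulators of the cytotoxic programme also gave 0 calls among 13 tested genes, with a median of -0.12. Without knockout replicate 2 Stat4, which signals from the interleukin-12 receptor, was called lower at -1.33, with an adjusted p of 0.0470 in limma. Irf1, an interferon-induced transcription factor, differed by -0.12 ± 0.36 (SE), and Zeb2, a transcription factor of natural killer cell maturation, by 0.59 ± 0.43 (SE). Zeb2 moved to 0.089 without knockout replicate 2 and to 1.03 without knockout replicate 1. Death ligands, receptors and granzyme substrates gave 0 calls among 7 tested genes, with a median of -0.32, and 1 call when knockout replicate 3 was left out. Casp8, the initiator caspase of death receptors, differed by -0.60 ± 0.26 (SE), with an adjusted p of 0.258 in limma, and Parp1, a DNA repair enzyme cleaved during apoptosis, by -0.32 ± 0.23 (SE). Among intracellular serpins, 1 of 4 tested genes was called lower. This was Serpinb1a, an inhibitor of neutrophil proteases, at 8.26 ± 0.42 in knockout spleens and 9.68 ± 0.23 in wild-type spleens (SD, n = 3 each). Its difference was -1.42 ± 0.28 (SE), with an adjusted p of 0.0268 in limma, and the call was lost without knockout replicate 2 (adjusted p 0.0510), without any wild-type replicate (0.0757 to 0.143) or without the detection filter (0.0618).

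**Figure D3:**
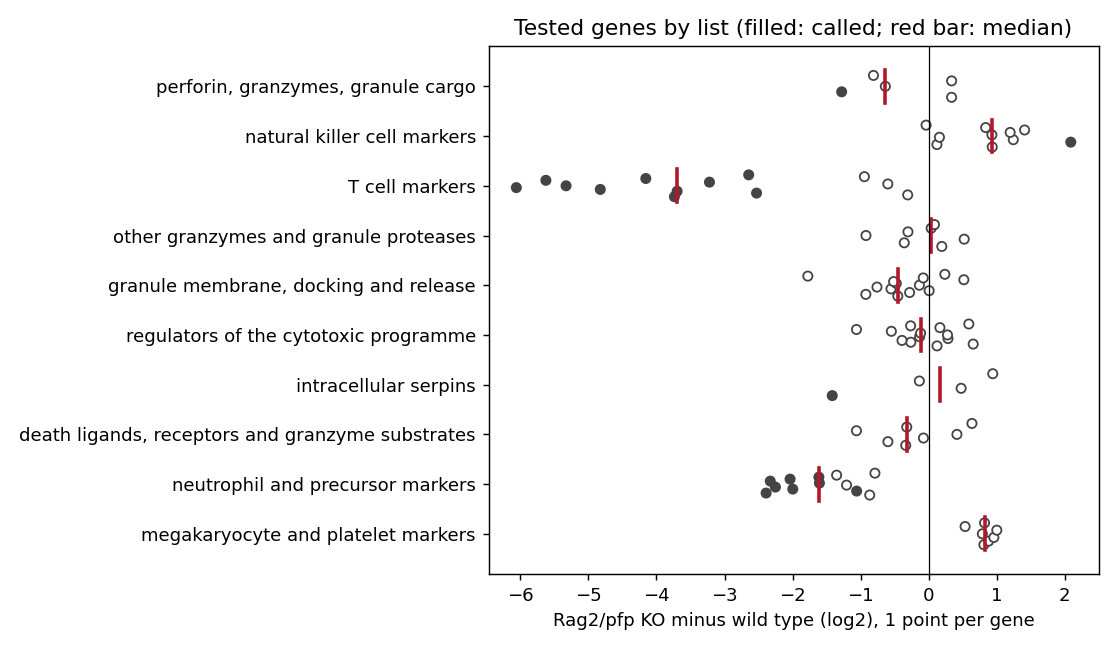
Rag2/pfp knockout minus wild type (log2), 1 point per tested gene, for the members and 9 other lists, filled where called, with a red bar at each list's median. The 5 tested member genes, each by its brightest tested probe, have a median of -0.64, which is the uncalled Nkg7 value. Over the 7 tested member probes the median is -0.02. Natural killer cell markers have a median of 0.93, T cell markers one of -3.70 and the granule release genes one of -0.45.

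Natural killer cell markers are set beside the members because these cells carry perforin and granzymes. Of 13 with a probe, 10 were tested and 9 lay above 0, with a median of 0.93, and 1 was called, higher in knockout spleens. Calls in this list numbered 6 without knockout replicate 1, 0 without any single wild-type replicate, and 0 when probes were not filtered on detection. Klrb1b, a receptor of the NK1.1 family, was at 7.40 ± 0.83 in knockout spleens and 5.31 ± 0.27 in wild-type spleens (SD, n = 3 each). It was detected on 3 knockout arrays and 1 wild-type array, and its difference was 2.09 ± 0.39 (SE), with an adjusted p of 0.0223 in limma. That call was lost without knockout replicate 2 or 3 (0.0503 and 0.0551) or any wild-type replicate (0.0650 to 0.119). It was also lost without the detection filter (0.0890) and in the authors' deposited log2 values, where the difference was 0.94 (0.0759). The list's summed level was 4390, 7682 and 6571 in knockout replicates 1 to 3, against 4452 to 4779 in wild-type spleens. By this sum knockout replicate 1 lay below the wild-type range and the others above it. A linear sum is weighted to bright genes. Tyrobp, the brightest tested marker and the only 1 below 0, was at 10.68 in knockout replicate 1, against 11.10 to 11.21 in wild-type spleens. On the log2 scale the mean of the list in knockout replicate 1 was 0.45 above the wild-type mean. Probes of Ncr1 and Eomes, defining genes of natural killer cells, did not pass the detection filter. The part of these markers in the members' values was not tested.

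Other marker lists of the same arrays give the setting. All 8 tested B cell markers were called lower, including Fcmr, Cd79a, Cd79b and Blk, with a summed level of 695 to 932 in knockout spleens, against 28279 to 33065 in wild-type spleens. Among plasmacytoid dendritic cell markers, 1 of 5 tested genes was called lower, Ly6d at -4.55, beside a median of -4.43 for the B cell markers. Which cells gave the Ly6d signal was not tested. The other plasmacytoid dendritic cell markers were not called, with Siglech at -0.07, Tcf4 at -0.79, Bst2 at 0.56 and Klk1 at -0.16. Among splenic macrophage markers, 1 of 8 was called lower, Timd4 at -1.28, though not when any wild-type array was left out, without the detection filter (adjusted p 0.0648 in limma) or in the authors' deposited log2 values (-0.68, adjusted p 0.0522). Pancreas and fat markers gave 0 calls among 3 tested genes, Cela1 at 0.47 and Ctrl at -0.10 among them.

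**Figure D4:**
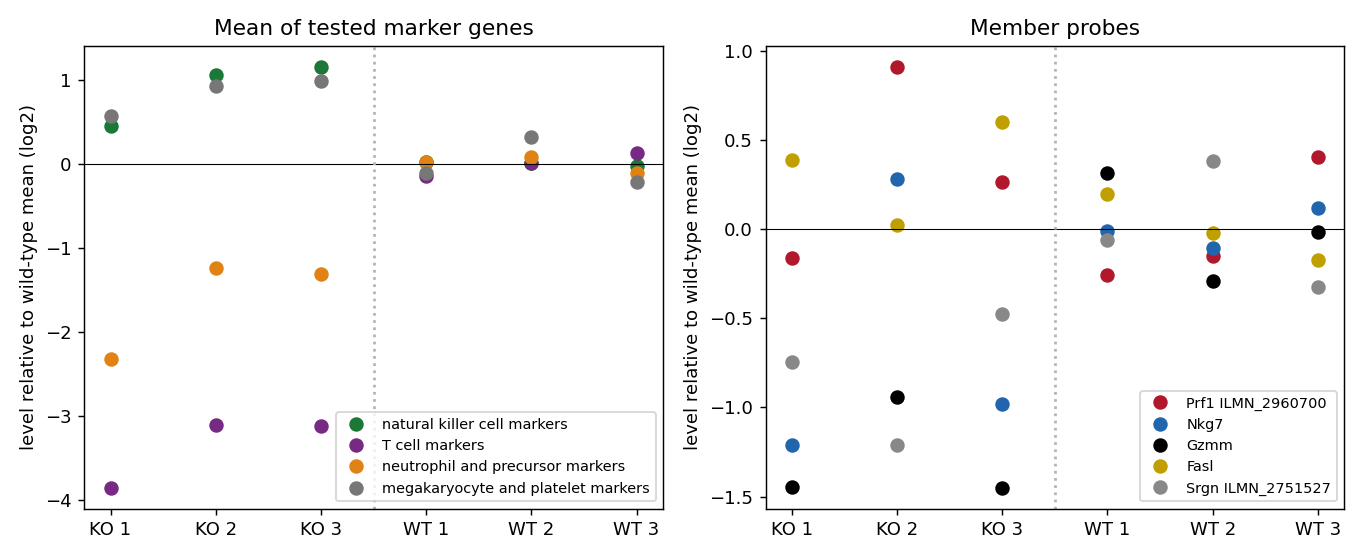
Level relative to the wild-type mean (log2) on each array, knockout arrays left and wild-type arrays right, for the mean of the tested genes of 4 marker lists (left panel) and for 5 member probes (right panel). T cell markers lie at -3.85, -3.10 and -3.12 on the knockout arrays and natural killer cell markers at 0.45, 1.06 and 1.15, and the Gzmm points lie below 0 on all 3 knockout arrays.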

How the data were processed

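Total RNA from spleen, 500 ng per sample per the labels' protocols, was hybridised to 6 one-colour arrays. Titles gave the groups and replicate numbers. Nothing in the labels says that samples came from separate animals. The p-values thus reflect the spread between these samples alone, part of which may be technical. Knockout replicate 2, set apart by Eif2s3y and Xist, cannot be a technical repeat of knockout replicates 1 and 3.

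The authors deposited signal intensity per probe, not normalized, and a detection p-value per probe and array, per the file headers. Their deposited log2 values, whose method is not stated, were reproduced within 5e-07 by quantile normalization of the uncorrected signal, with a median of 7.24 per column. The submitters' processing notes name GenomeStudio 2011.1.

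Intensities were processed with neqc in limma 3.58.1 (R 4.3.3): normal-exponential background correction, an offset of 16, quantile normalization and log2, which understates changes of dim probes. Quantile normalization removes a shift shared by most probes. Each probe was fitted with group as the only term (lmFit, eBayes, two-sided), over the 12885 of 25697 probes detected on at least 3 arrays. The quantile normalization and the fit were tested on simulated log2 values, with as many changes up as down, all in brighter probes. Background correction, the detection filter and changes of dim probes were not covered by that simulation. Depth does not apply to arrays, and 3 arrays per group limit the precision.

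Where no array of a group detected a probe, the text gives an "at least" fold, from the higher of its own value and the lowest detected level per array. Probe symbols came from the platform annotation, in which 1719 probes were unnamed here. Summed levels are sums of linear normalized signal over a list's tested genes. Each gene stands by its brightest tested probe.

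The members, the 14 other gene lists and the rules were chosen with earlier results of these data known. Each member is named, and its probes are given by identifier except those of Gzma, Gzmb, Gzmc and Serpinb9. From other lists the rule names the called genes, at most 4 by size, else the 2 with the highest mean. For Prf1 and Gzmm it names the 3 most similar profiles. Of the neutrophil markers it selects, only Ctsg is given. Megakaryocyte and platelet markers are given by counts and sums alone. Ctsh, Stat4, Mpo, Tyrobp, Siglech, Tcf4, Bst2 and Klk1 are named outside this rule, after their values were seen. Of 5 planned member pairs, 3 involved Gzma or Gzmb, which had no tested probe. The 15 alternatives covered normalization, the authors' log2 values, the detection filter, the variance model, array weights, a replicate block and each array left out.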

Additional observations from a re-analysis of the deposited data

How the results depend on the processing

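Gzmm lay below 0 in all 15 alternatives and was called in 9, and the calls lost were without a detection filter (adjusted p 0.0594 in limma) and in 5 of the 6 omissions of an array, knockout replicate 2 being the exception. Without a filter, 0 member probes were called and 78 probes of the array were called higher. The main fit called 505 probes, 379 lower and 126 higher, so that 75.0% were lower. Without normalization between arrays 873 were called, 857 lower and 16 higher (98.2% lower), and with median centring 661 lower and 49 higher (93.1% lower). These settings moved the median of all tested probes to -0.33 and -0.16. Relative to that median, Gzmm differed by -1.43 under both. Without normalization, Prf1 ILMN_1228333 turned to -0.060 and Fasl to -0.16, which are 0.27 and 0.17 relative to the median. Requiring detection on all 6 arrays left 323 calls, 234 of them lower. Array weights gave 790 calls, 257 of them higher. A replicate block gave 887 calls, 571 lower (64.4%) and 316 higher, with Gzmm at an adjusted p of 0.0143. Same-numbered arrays deviated together in 1 pair only (correlations 0.495, -0.28 and -0.04). The deposited column names number the samples otherwise, and there only replicate 1 carries the same number in both groups. So few pairs cannot show whether the numbers pair the samples. Leaving out each array in turn gave 166 to 678 calls, 158 to 473 lower and 7 to 205 higher, and 0 to 2 member probes called. Over these omissions Srgn ILMN_2722732 ran from -0.34 to 0.25, Lamp2 from -0.27 to 0.22, Irf1 from -0.50 to 0.28 and Ctrl, a pancreas marker, from -0.33 to 0.15. Lamp2 also turned to -0.18 without normalization, -0.0040 with median centring, -0.0020 with cyclic loess and -0.040 with array weights, where Irf1 turned to 0.070. The cause was not tested. Of 179 recomputed member differences, 5 of tested probes were reversed: 3 of Srgn ILMN_2722732, 1 of Prf1 ILMN_1228333 and 1 of Fasl. Among the probes that were not tested, Gzmb, Gzmc and Serpinb9 also fell below 0 in some alternatives. Their lowest values were -0.0029, -0.040 and -0.036. Of 210 list counts 173 stayed within 1.5 times. A slide block was not run, since the files name no slides.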
